A study of Danio rerio with 28 samples.

Results

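Single germ cells of wild-type zebrafish larvae at 2 weeks post fertilization were compared with wild-type germ cells at 24 hours post fertilization (hpf), in means per gene, in the share of cells that detect each gene and in the spread among the 2 week cells. The 2 week group was all 76 cells of the 1 plate sampled at that age. The 24 hpf group was the cells of the wild-type 24 hpf plates with 1 or more transcripts of nanos3, and 106 of 196 cells on 5 plates met this, with 7, 14, 46, 9 and 30 cells on plates 1 to 5. The 182 cells were drawn from 1203 cells in 28 libraries, which also held earlier stages and tdrd6a mutants. All 6 plates are labelled as germ cells of wild-type genotype, and the design text says that embryos of the wild-type mothers bore a reporter transgene written kop::egfp-f-nos1, with the 3'UTR of nos1, which labels germ cells. How germ cells were marked at 2 weeks, and how many animals stand behind a plate, is not stated in the labels. Values were transcripts per cell from CEL-seq, a method that tags the 3' end of each RNA with a barcode for its well. nos1 is an older name of nanos3, so 3' ends of reporter transcripts and of nanos3 itself cannot be told apart here.

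Primordial germ cells of zebrafish are set aside in the early embryo by germ plasm, a maternal store of RNA and protein, and at 24 hpf they have migrated to the region of the future gonad and do not yet divide by meiosis. Germ plasm RNAs such as vasa, nanos3 and dnd encode RNA-binding proteins that protect germ cell identity. At about 2 weeks germ cells of the juvenile gonad multiply, many fish pass through an ovary-like stage, and the Piwi pathway, in which Piwi proteins carry small RNAs against transposons, is active in them. The meiotic programme pairs homologous chromosomes along the synaptonemal complex and recombines them.

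The plates were similar in depth over the 1017 listed genes. The median 2 week cell held 481.5 transcripts (range 371 to 572) and the medians of the 24 hpf plates were 489, 604, 479, 440 and 431, while the median number of genes per cell was 238.5 in both groups. Mitochondrially encoded transcripts made up 10.8% at 2 weeks against 6.31% to 11.3% on the 24 hpf plates, and ribosomal protein transcripts 32.6% against 24.5% to 32%. The same well barcodes are used on each plate, so 80 of the 106 chosen 24 hpf cells carry a barcode also seen at 2 weeks, and 0 of the 182 profiles were identical. The rule at 24 hpf has a threshold of 1 transcript: 26 cells stood at exactly 1, 16 at 2, 9 at 3 and 55 at 4 or more, while 90 cells had 0 and are called nanos3-negative cells here. The mean of vasa was 0.278 in cells at 0, 0.423 in cells at 1 and 1.25 in cells at 2 nanos3 transcripts.

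The 2 defining germ cell markers were found in most 2 week cells, with single cells that held few germline transcripts described at the end. vasa, an RNA helicase of germ granules, was detected in 73 of 76 cells and piwil1, a Piwi protein, in 63, and every cell held at least 1 of them. Both together were detected in 60 of 76 cells (78.9%) at 2 weeks and in 1 of 106 chosen cells at 24 hpf. Over 11 germ plasm and piRNA genes without nanos3, the 2 week cells held 1 to 8 detected genes with a median of 4, and 66 of 76 (86.8%) held 3 or more. At 24 hpf 39 of 106 chosen cells (36.8%) and 3 of 90 nanos3-negative cells (3.33%) held 3 or more, and 16 of the 106 held none besides nanos3. These 11 genes made up 0.457%, 0.652%, 0.511%, 0.976% and 0.952% of transcripts on 24 hpf plates 1 to 5, and 1.61% at 2 weeks. The 2 week share lay above every 24 hpf plate (0.710% ± 0.243, SD, n = 5 plates), and in nanos3-negative cells it was 0.107%. The set of germline genes behind that share was not the same at both ages, as the single genes show.

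A gene was compared when its mean was at least 0.2 transcripts per cell in either group, which 536 genes passed apart from nanos3. It was called higher or lower when the 2 week mean lay outside the means of all 5 plates at 24 hpf and differed at least 4-fold from their mean after 0.2 was added to both. By this rule 10 genes (1.87%) were higher and 7 (1.31%) lower at 2 weeks. At a fold of 2 the counts were 72 (13.4%) and 50 (9.33%). A gene that reached a mean of 0.2 in only 1 of the groups had its direction fixed by that filter. The median log2 difference of all tested genes was 0.02. Outside all 5 plates at 24 hpf, by any fold, lay 169 genes (31.5%) above and 109 (20.3%) below. With 1 plate at 2 weeks and cells that share their plate, no test between ages was possible and no p-value is given: differences describe these 6 plates. Error at 24 hpf is the SD over 5 plates, and at 2 weeks an exact 95% Poisson interval of a mean or an exact Clopper-Pearson interval of a share, both for counting error only.

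**Figure D1:**
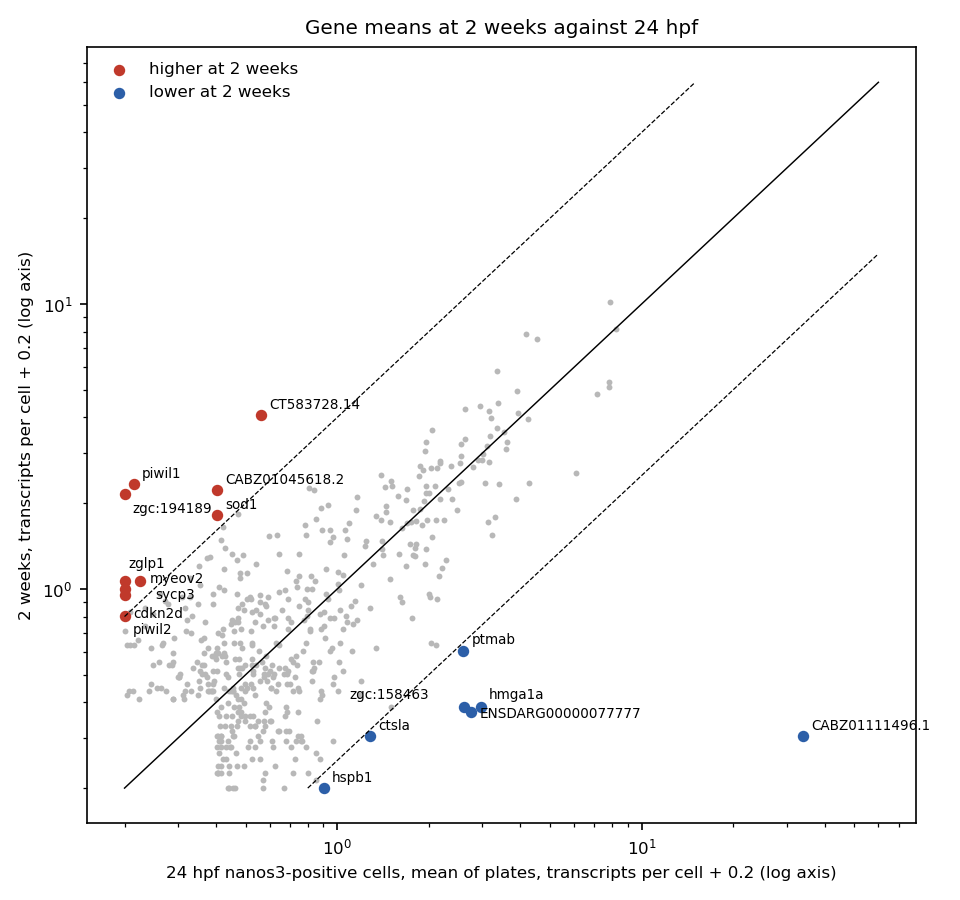
Mean transcripts per cell plus 0.2 of 536 genes at 2 weeks (vertical, log axis) against the mean of the 5 plates at 24 hpf (horizontal, log axis); the solid line marks equal levels, dashed lines 4-fold differences, red points the 10 genes called higher and blue points the 7 called lower. Piwil1 and zgc:194189 stand at the left edge above 2, and CABZ01111496.1 stands far to the right of every other gene.

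Among RNAs of the germ plasm and of early germ cells, vasa was present at both ages, while dnd and ca15b were lower at 2 weeks by a fold of at least 2. vasa averaged 0.571, 1.36, 0.935, 1.67 and 1.43 transcripts per cell on 24 hpf plates 1 to 5 and 2.32 (1.99 to 2.68) at 2 weeks. All 24 hpf plates lay under the 2 week value, by 1.98-fold (counting interval 1.56 to 2.51) over pooled cells, which is under the 4-fold call. It was detected in 96.1% of 2 week cells (88.9% to 99.2%), in 42.9% to 70% of chosen cells by plate at 24 hpf and in 14.4% of nanos3-negative cells. dazl, an RNA-binding regulator of translation in germ cells, averaged 0, 0.214, 0.0435, 0.111 and 0.233 on the 24 hpf plates and 0.579 (0.421 to 0.777) at 2 weeks, above each plate, and was detected in 40.8% against 10.4% of cells. buc, Bucky ball, organizes the germ plasm store of oocytes. It had 1 transcript in the 106 cells at 24 hpf and 18 in 13 of 76 cells at 2 weeks, a ratio of 25.1 with a counting interval of 3.96 to 1046. Values of earlier stages, here and below, are over all wild-type cells and not cells chosen by nanos3. nanos3 was detected in 26 of 205 cells at 3.5 hpf and 54 of 101 at 8 hpf. buc was detected in 81 of the 205 cells at 3.5 hpf and in 0 of the 101 at 8 hpf. Over these unlike sets of cells it was detected at the first and the last age and nearly absent between them.

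dnd, which shields germ plasm RNAs from microRNAs and is needed for germ cells to migrate and survive, was lower at 2 weeks. Its 24 hpf plate means were 0.714, 0.714, 0.435, 0.333 and 0.600, and at 2 weeks it was 0.0921 (0.0370 to 0.190), under every plate. It was detected in 7 of 76 cells against 37 of 106, and nanos3-negative cells had it in 4.44%. ca15b, a carbonic anhydrase whose RNA marks early germ cells, averaged 0.429, 0.357, 0.457, 0.667 and 0.433 on the 24 hpf plates and had no transcript in 76 cells at 2 weeks. Its level was thus at least 11.5-fold lower, against an assumed floor of 3 transcripts over the group. Each fold given as at least uses this floor, leaves out counting error and is no confidence limit. The exact interval for 0 of 76 cells reaches 4.74% of cells with a counted transcript, which is no limit on cells that hold undetected RNA. gra, granulito, averaged 0.230 ± 0.0992 (SD, n = 5 plates) at 24 hpf and 0.0789 at 2 weeks, below each plate by a log2 difference of -0.62. GTSF1L, chosen after its values were seen, averaged 0.545 ± 0.141 and 0.250, a log2 difference of -0.73. tdrd7, a Tudor protein of germ granules, averaged 0.329 at 2 weeks, within the 24 hpf plates (0 to 0.556). h1m, a linker histone of oocytes and early germ cells, averaged 0.645 against 0.456 ± 0.105, yet fewer 2 week cells detected it (22.4% against 30.2%), since 2 cells with 12 and 11 transcripts held 46.9% of the total. nanos3 chose the 24 hpf cells, so its difference is no result: its plate means were 1.71, 8.50, 5.39, 4.78 and 4.70 at 24 hpf, and it had 1 transcript in 1 of 76 cells at 2 weeks. Of the 8 listed members of this group other than nanos3, 2 were higher and 2 lower at a fold of 2, beside 13.4% and 9.33% of all genes, and 0 at a fold of 4 in either direction. The 2 higher, buc and dazl, passed the filter of 0.2 only through their 2 week means, and the 2 lower, dnd and ca15b, only through 24 hpf. This fixed their direction, so the counts describe these genes and are no result for the group.

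**Figure D2:**
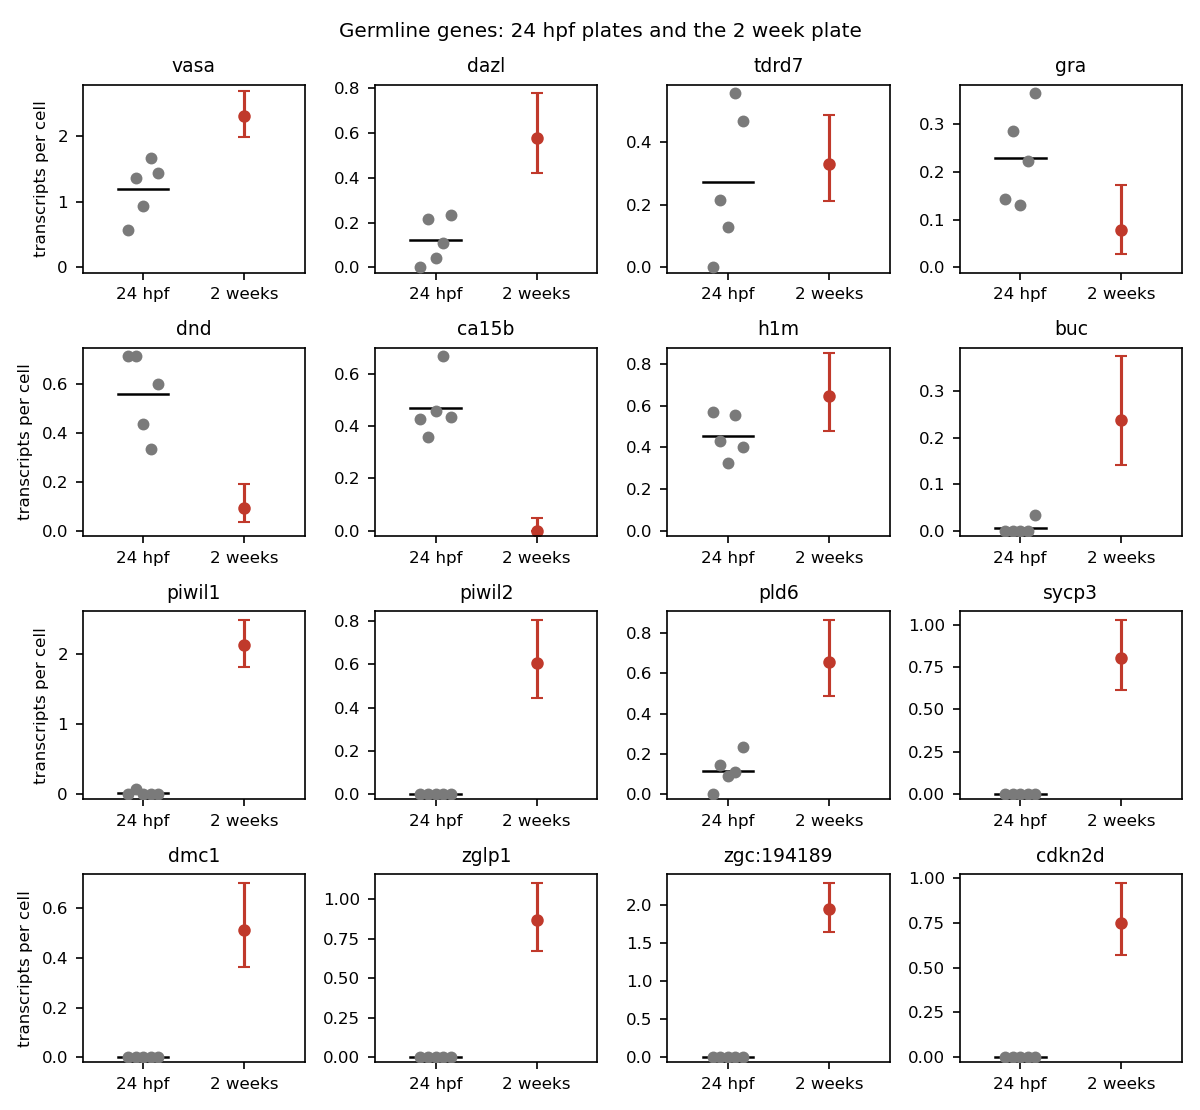
Mean transcripts per cell of 16 germline and meiosis genes on each 24 hpf plate (grey points, black line their mean) and at 2 weeks (red point with its exact 95% Poisson interval), each panel on its own axis from 0. Ca15b and dnd lie under every 24 hpf plate at 2 weeks, and piwil1, piwil2, sycp3, dmc1, zglp1, zgc:194189 and cdkn2d are at or near 0 on all 24 hpf plates.

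Of the Piwi pathway, piwil1 and piwil2 were called higher at 2 weeks. piwil1 (Ziwi) averaged 0, 0.0714, 0, 0 and 0 on the 24 hpf plates, which is 1 transcript in 106 cells, and 2.13 (1.82 to 2.49) at 2 weeks. The 2 week plate mean lay above every 24 hpf plate. It was detected in 82.9% of 2 week cells (72.5% to 90.6%) and in 0 of 90 nanos3-negative cells, while 13 of the 76 cells had none, and the ratio over pooled cells was 226 with a counting interval of 40 to 8979. piwil2 (Zili), the other zebrafish Piwi protein, had no transcript in the 106 cells at 24 hpf, 1 in the nanos3-negative cells, and 46 transcripts in 28 of 76 cells (36.8%) at 2 weeks. Its mean of 0.605 (0.443 to 0.807) was at least 21.4-fold higher. pld6, a mitochondrial nuclease that in mouse and fly takes part in making piRNAs, averaged 0, 0.143, 0.0870, 0.111 and 0.233 at 24 hpf and 0.658 (0.488 to 0.867) at 2 weeks. It lay above every plate by 4.98-fold (2.71 to 9.76) over pooled cells, and 42.1% against 11.3% of cells detected it. The fourth listed gene, the chaperone hsp90aa1.1, had 1 transcript at 2 weeks and 9 at 24 hpf. All 3 tested members passed the filter of 0.2 only through their 2 week means, which fixed their direction, and hsp90aa1.1 was not tested. Of the 3, 2 were called higher at a fold of 4 and 3 at a fold of 2, beside 1.87% and 13.4% of all genes. These counts describe the 3 genes and are no result for the pathway as a group. In the earlier stages piwil1 had 7 transcripts in 205 cells at 3.5 hpf and 1 in 101 cells at 8 hpf.

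sycp3 and dmc1 were detected at 2 weeks and not in the chosen cells at 24 hpf. sycp3, a lateral element protein of the synaptonemal complex, had no transcript in 106 chosen cells, 1 in the 90 nanos3-negative cells, and averaged 0.803 (0.614 to 1.03) in the 2 week cells, 34 of which (44.7%, 33.3% to 56.6%) detected it. This was at least 28.4-fold higher. dmc1, the recombinase of meiotic strand exchange, had no transcript in any of the 196 cells at 24 hpf and was detected in 19 of 76 cells (25%, 15.8% to 36.3%) with a mean of 0.513, at least 18.1-fold higher. With 0.2 added, a mean under 0.6 cannot reach the 4-fold call against 0, so dmc1 was called at a fold of 2 only. Both were at 0 in the 205 cells at 3.5 hpf and the 101 cells at 8 hpf as well. These were the only 2 genes of the meiosis list found by the names printed in the table. The list also holds foxl2l, which is printed there as zgc:194189 and described below. Further genes with known meiotic roles were chosen after their values were seen. syce2, a central element protein of the synaptonemal complex, averaged 0, 0, 0.0435, 0 and 0.0667 on the 24 hpf plates and 0.461 (0.321 to 0.640) at 2 weeks. spdya, which activates Cdk2 and in mouse helps tie telomeres to the nuclear envelope in meiosis, had 1 transcript at 24 hpf and 33 at 2 weeks, in 23 cells, a ratio of 46 with an interval of 7.71 to 1872. smc3, a core subunit of cohesin, averaged 0.109 ± 0.0746 at 24 hpf and 0.737 at 2 weeks.

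zgc:194189, which the RefSeq table lists as a synonym of foxl2l, had the highest level of the genes absent at 24 hpf. This forkhead gene marks early female germ cells in the zebrafish ovary. It had no transcript in any of the 196 cells at 24 hpf, 3 in 205 cells at 3.5 hpf and 0 in 101 cells at 8 hpf. At 2 weeks it averaged 1.95 (1.65 to 2.29) and was detected in 45 of 76 cells (interval 47.3% to 70.4%), at least 68.8-fold higher. zglp1, a GATA-like zinc finger protein that in mouse drives germ cells into oogenesis, was chosen after its values were seen. It had no transcript at 24 hpf and 66 at 2 weeks, in 32 of 76 cells (42.1%), a mean of 0.868 (0.672 to 1.1) and at least 30.7-fold higher. Unlike sycp3 and dmc1 it was present earlier, with 28 transcripts in 26 of 205 cells at 3.5 hpf and 0 in 101 cells at 8 hpf. cdkn2d, an inhibitor of the G1 kinases Cdk4 and Cdk6, had no transcript at 24 hpf and averaged 0.750 (0.568 to 0.972) in 27 of 76 cells at 2 weeks, at least 26.5-fold higher. tuba7l, an alpha tubulin, had 2 transcripts at 24 hpf and 48 at 2 weeks, a ratio of 33.5 with an interval of 8.78 to 284.

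**Figure D3:**
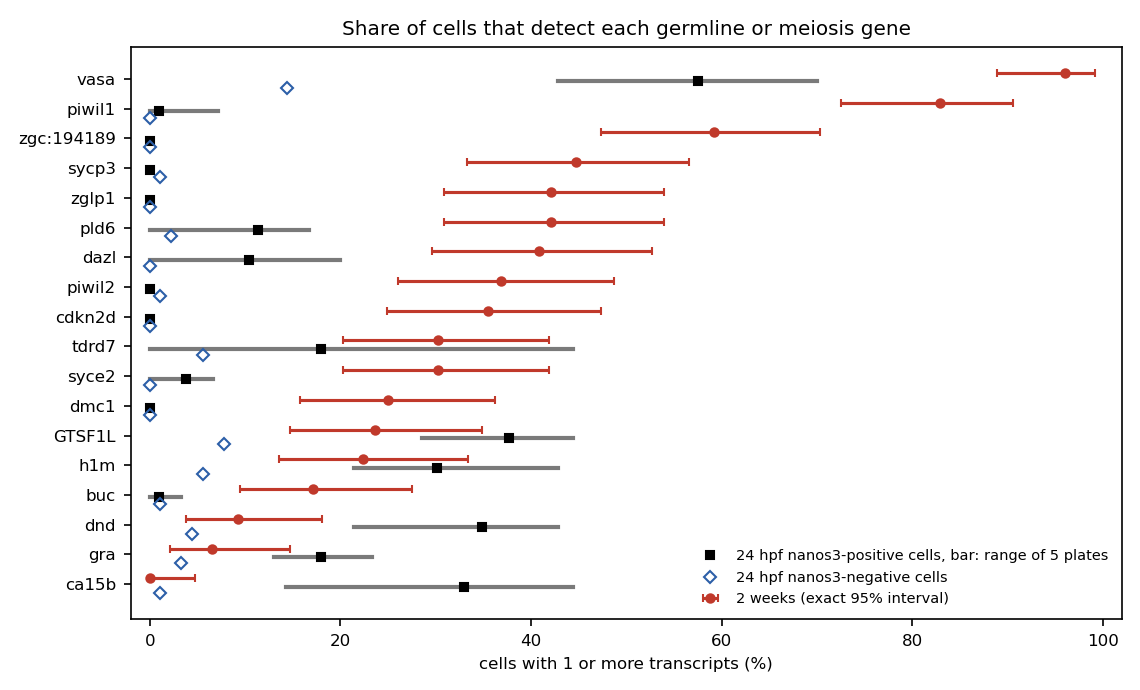
Percent of cells with 1 or more transcripts of 18 germline and meiosis genes at 2 weeks (red, exact 95% interval), in nanos3-positive 24 hpf cells (black square, bar from the lowest to the highest of 5 plates) and in nanos3-negative 24 hpf cells (open diamond). The 2 week interval of vasa, piwil1 and zgc:194189 lies to the right of every 24 hpf value, and ca15b is at 0% at 2 weeks.

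The detection shares were read against depth. Each cell was thinned to 350 transcripts, which left out 0 cells at 2 weeks and 3 at 24 hpf. The share that detected vasa was then 86.8% against 45.6%, piwil1 78.9% against 0%, sycp3 36.8% against 0%, zgc:194189 52.6% against 0%, dmc1 22.4% against 0% and dnd 7.89% against 26.2%. For vasa and dnd the order of the 2 groups was thus as without thinning. sycp3, zgc:194189 and dmc1 had no transcript in the chosen 24 hpf cells, so thinning, which only removes transcripts, could not reverse their order. piwil1 had 1 transcript there, so its order could hardly change either.

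Other genes called higher at 2 weeks had no germline annotation. The unannotated transcript CT583728.14 averaged 0.571, 0.214, 0.196, 0.556 and 0.267 on the 24 hpf plates and 3.88 (3.45 to 4.35) at 2 weeks. CABZ01045618.2, also unannotated, averaged 0.286, 0.0714, 0.261, 0.333 and 0.0667 and then 2.03 (1.72 to 2.37). In both, single 2 week cells were far above the rest, as described with the spread among cells. CABZ01045618.2 was detected in 43.3% of nanos3-negative cells, about as often as at 2 weeks (42.1%). sod1, cytosolic superoxide dismutase, averaged 0.286, 0.357, 0.152, 0.111 and 0.1 and then 1.62 (1.35 to 1.93), above every plate, and was detected in 80.3% of 2 week cells against 15.1% at 24 hpf. myeov2, the COP9 signalosome subunit cops9 in RefSeq and chosen after its values were seen, averaged 0.0241 ± 0.038 and 0.868 (0.672 to 1.1).

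The largest difference in either direction was in CABZ01111496.1, a transcript with no annotation in the table used. Its plate means at 24 hpf were 53.3, 39.6, 33.5, 32.6 and 9.50, and at 2 weeks it was 0.105 (0.0454 to 0.207), so that 105 of 106 cells detected it at 24 hpf and 7 of 76 at 2 weeks. It was as abundant in nanos3-negative cells, with a mean of 33.3, and so not particular to germ cells at 24 hpf. zgc:158463, listed as rRNA in RefSeq, averaged 2.41 ± 0.690 and 0.184, and ENSDARG00000077777 averaged 2.56 ± 0.812 and 0.171. The nanos3-negative cells held them at 2.18 and 4.79.

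hmga1a, an AT-hook protein of open chromatin, averaged 2.00, 4.50, 2.37, 2.22 and 2.70 at 24 hpf and 0.184 (0.101 to 0.309) at 2 weeks. The 2 week value lay far under the lowest plate, 93.4% against 17.1% of cells detected it, and nanos3-negative cells were at 3.31. ptmab, a prothymosin, averaged 1.57, 3.93, 3.26, 1.11 and 2.1 and then 0.408 (0.277 to 0.579). ctsla, the lysosomal protease cathepsin L, averaged 1.43, 1.43, 0.957, 0.778 and 0.833 and then 0.105 (0.0454 to 0.207), and was higher in the chosen 24 hpf cells than in the nanos3-negative cells (0.389). hspb1, a small heat shock protein, had plate means of 0.286, 1.79, 0.609, 0.333 and 0.5, with plate 2 well above the others, and no transcript at 2 weeks, at least 17.4-fold lower. Without plate 2 the log2 differences of hspb1, ptmab and ctsla were -1.66, -1.86 and -1.97, so that these 3 were not called, while ppib, a cyclophilin, passed the call and made 5 lower genes. ctsla also missed the call without plate 1 (-1.97) and ptmab without plate 3 (-1.97).

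The groups of genes were described by their members and by the median log2 difference of those tested. Over all tested genes the median was 0.02, 50.7% were above 0, 13.4% were higher and 9.33% lower at a fold of 2. Of 14 tested cell cycle genes 12 (85.7%) were above 0 and 6 (42.9%) were higher at a fold of 2, with a median of 0.54. cdk2, mcm2, mcm7, dut, kpna2 and MKI67 were picked from the list after their values were seen. Of these, cdk2, mcm2 and kpna2 passed the filter only through their 2 week means, which fixed their direction. The counts and the median thus describe the tested genes and are no result for the cell cycle as a group. cdk2, the kinase of S phase entry, averaged 0.0618 ± 0.0617 at 24 hpf and 0.763 (0.579 to 0.987) at 2 weeks. mcm2 and mcm7, subunits of the replicative helicase, averaged 0.151 ± 0.0902 and 1, and 0.268 ± 0.170 and 0.763. dut, which clears dUTP, averaged 0.249 ± 0.0951 and 1.13, and kpna2, an importin, 0.180 ± 0.157 and 1.09. In contrast pcna, the polymerase clamp, lay within the 24 hpf plates at 1.21 (0.714 to 1.57 by plate), and MKI67, a marker of dividing cells, was lower than each plate at 0.158 against 0.328 ± 0.143, a log2 difference of -0.56.

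Nuclear genes of the respiratory chain were a second group with positive values: 20 of 26 (76.9%) were above 0, with a median of 0.50. At a fold of 2, 4 (15.4%) were higher, which is near the 13.4% of all genes, and 0 lower. ATP5B, the catalytic beta subunit of ATP synthase, averaged 1.14, 0.357, 0.565, 0.444 and 0.533 at 24 hpf and 2.07 (1.76 to 2.42) at 2 weeks. atp5ib, another ATP synthase subunit, averaged 0.127 ± 0.0406 and 0.895, and passed the filter only through its 2 week mean, which fixed its direction. cox6b2, of cytochrome c oxidase, averaged 0.649 ± 0.363 and 1.57. Of the 11 mitochondrially encoded genes 2 (18.2%, near the share of all genes) were higher at a fold of 2, and their median of 0.31 ranged from -0.10 to 0.77 against single plates. mt-co1 averaged 7.67 at 2 weeks (24 hpf plates 1.29 to 5.64), while mt-co3 averaged 4.92 (4.78 to 13). Of 7 iron and redox genes 4 (57.1%) were higher at a fold of 2, with a median of 1.04: beside sod1 these included prdx2, a peroxiredoxin, at 0.340 ± 0.106 and 1.03. Members of this list that passed the filter at only 1 age had their direction fixed by it. The count thus describes these genes and is no result for the group. fth1a, the ferritin heavy chain, lay within the plates at 0.408 (0.286 to 1).

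Chromatin proteins differed in both directions. Of 16 tested, 4 were higher and 4 lower at a fold of 2 (25% each, beside 13.4% and 9.33% of all genes). The median was -0.25, which became 0.18 against 24 hpf cells with 2 or more nanos3 transcripts (4 plates, without plate 1). hmgb1a and hmgb1b, high mobility group proteins that bend DNA, averaged 0.214 ± 0.105 and 1.29, and 0.639 ± 0.510 and 2.03. npm1a, nucleophosmin, averaged 0.227 ± 0.173 and 1.2. hmgb2b lay within the 24 hpf plates at 2.5 (0.857 to 3.71), and hmga1a and ptmab were the lowest members. The linker and core histone list had 0 of 7 members past a fold of 2. histh1l, a linker histone outside that list and chosen after its values were seen, averaged 0.411 ± 0.142 and 0.0921.

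The splicing and hnRNP list had more members lower than higher, 10 (28.6%) against 2 (5.71%) of 35 at a fold of 2, with a median of -0.42 (-0.57 to 0.32 against single plates). syncrip averaged 1.92 ± 0.623 at 24 hpf and 0.724 at 2 weeks, and snrpb, a core snRNP protein, 1.81 ± 0.417 and 0.763. hnrnpa0l was close at both ages (1.55 ± 0.680 and 1.51). Of 20 translation factors 14 (70%) were below 0, beside 49.3% of all genes, and 0 passed a fold of 2. Their median was -0.36 (-0.27 to -0.12 against single plates), with eef2b, elongation factor 2, at 3.1 ± 0.594 and 1.59. eef1a1l1, elongation factor 1 alpha, averaged 7.6 ± 1.51 and 5.12, below each plate. Of 14 cytoskeleton genes 3 (21.4%) were lower and 2 (14.3%) higher at a fold of 2, beside 9.33% and 13.4% of all genes. Their median was -0.40 (-0.33 to -0.12 against single plates), which became 0.04 against 24 hpf cells chosen by vasa. actb2, a beta actin, averaged 5.43, 5.79, 6.09, 5.67 and 6.47 and then 2.36 (2.02 to 2.73), a narrow spread at 24 hpf that the 2 week value lay far below. msna, moesin, averaged 0.677 ± 0.321 and 0.0526. The large and small ribosomal protein lists had medians of 0.14 and -0.03, which changed sign under other scalings or choices of cells, and 9 of 18 proteasome and ubiquitin genes were above 0. Of 17 heat shock and chaperone genes 2 were higher and 2 lower at a fold of 2 (11.8% each, near the shares of all genes), hspb1 among the latter, with a median of 0.32.

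**Figure D4:**
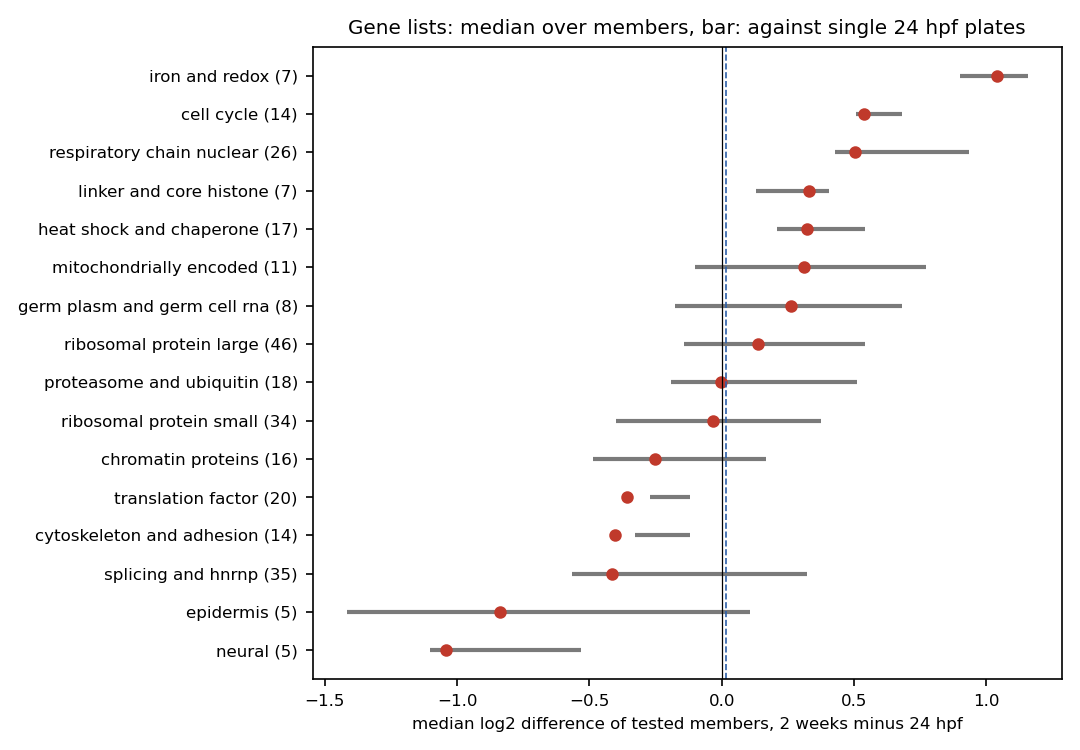
Median log2 difference (2 weeks minus 24 hpf, after 0.2 was added) over the tested members of each gene list with 5 or more, with the number tested in brackets; the red point uses the mean of the 5 plates at 24 hpf, the grey bar spans the medians taken against each single plate and can lie beside the point, and the dashed line is the median of all tested genes at 0.02. Iron and redox, cell cycle and nuclear respiratory chain genes lie to the right, and neural and epidermis genes to the left. Members that passed the filter of 0.2 at only 1 age had their sign fixed by it. Among them were cdk2, mcm2, kpna2 and atp5ib, positive, and marcksl1a, tuba1c, krt4 and pfn1, negative, so list positions are partly set by the filter.

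Summed markers of muscle, nerve and mesenchyme were lower at 2 weeks than on every 24 hpf plate, and those of epidermis, notochord, liver and endothelium lay within the plates. The macrophage sum was lower than on every plate as well, through its member ctsd. The 15 skeletal muscle genes summed to 0.368 transcripts per cell at 2 weeks and 2.39 ± 1.38 on the 24 hpf plates (1.33 to 4.14), and 6 of the 15 were at 0 at 2 weeks, ckma, mylpfa and acta1a among them. Of all 1016 genes apart from nanos3, 141 were at 0 at 2 weeks. Genes at 0, here and below, include some that were low at 24 hpf as well, such as ckma and mylpfa (0.123 and 0.142, pooled). The 14 epidermis genes summed to 0.737 against 2.68 ± 1.47 (0.357 to 4.24), with 4 at 0, and the 10 neural genes to 0.5 against 2.73 ± 0.359 (2.24 to 3.14), with elavl3, neurog1 and sox3 at 0. The 16 collagen and mesenchyme genes summed to 0.382 against 1.41 ± 0.897, with 8 at 0, and the 4 globins to 0 against 0.0087 ± 0.0194. The macrophage and neutrophil genes (5) summed to 0.118 against 0.418, the notochord and mesoderm genes (4) to 0.0789 against 0.151, the liver, gut and pancreas genes (3) to 0.0526 against 0.142, and etv2, the 1 endothelial gene, to 0.0263 against 0.0174. In the macrophage list ctsd, cathepsin D, averaged 0.368 at 24 hpf and had no transcript at 2 weeks, so the 0.118 came from other members. Of these, MFAP4 averaged 0.0526 at 2 weeks against 0.0067, and coro1a 0.0263 against 0.0286. ctsd was higher in the chosen 24 hpf cells (0.453, pooled) than in the nanos3-negative cells (0.122). No gene of the list for gonad somatic cells was found by its printed name. Nanos3-negative 24 hpf cells were higher still for muscle (4.26), epidermis (6.37) and neural genes (4.57). They were lower than the chosen cells for notochord and mesoderm genes (0.0333) and for etv2 (0). The part of such cells or of their RNA in the lower values of actb2, msna or id1 was not tested, and hspb1 and ctsla were lower in nanos3-negative cells (0.156 and 0.389) than in the chosen cells. Of single genes, ttna, titin, averaged 0.652 ± 0.558 and 0.0658, krt4, a keratin, 0.766 ± 0.547 and 0.0921, and marcksl1a 0.649 ± 0.438 and 0.0132. id1, an inhibitor of helix-loop-helix factors, averaged 0.604 ± 0.290 and 0.0263, and was higher in nanos3-negative cells (1.09). Of 1016 genes apart from nanos3, 13 had more than 3 transcripts at 2 weeks and 0 in the 106 cells. For 57 there were more than 3 at 24 hpf and 0 in the 76 cells. The 24 hpf group held more cells and more transcripts (51870 against 36305), which by itself favours genes seen only there, so the 2 counts cannot be set against each other.

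Among the 2 week cells, most genes varied little more than counting would give. The Fano factor is the variance over cells divided by the mean and is 1 for Poisson counts. Its median was 1.17 over 424 genes with a mean of at least 0.2, and 18 genes (4.25%) reached 2. In the 106 cells at 24 hpf, which come from 5 plates, 47 of 440 genes (10.7%) did. Within single plates, which hold fewer cells, the count ran from 30 of 413 genes (plate 3, 46 cells) to 101 of 418 (plate 1, 7 cells). The highest 2 week values were in the unannotated CT583728.14 (23.7) and CABZ01045618.2 (11.5). CT583728.14 reached 70 transcripts in 1 cell, 28 and 26 in the next, and none in 29 cells. CABZ01045618.2 reached 32, 16 and 16 in its highest cells. Their levels went together over cells (Spearman 0.66, n = 76 cells of 1 plate, which share the library), with 27 cells holding both and 24 neither, and CT583728.14 also followed syce2 (0.58). At 24 hpf their Fano factors were 0.803 and 1.53. Then came h1m (5.99), U3 (4.51), mt-nd3 (3.78), epcam (3.59), mt-co1 (3.51) and mt-co2 (3.32). The others at 2 or more were zgc:194189 (2.89), mt-co3 (2.77), npm1a (2.74), mt-atp6 (2.51), nup205 (2.44), actb1 (2.28), dmc1 (2.21), hmgb1a (2.19), cdkn2d (2.14) and zglp1 (2.07). vasa was at 1.15 and piwil1 at 1.51.

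The meiosis genes were concentrated in a subset of the 2 week cells. sycp3 and dmc1 were detected together in 15 cells, sycp3 alone in 19, dmc1 alone in 4 and neither in 38 (Spearman 0.49). Of sycp3, dmc1, syce2 and zglp1, 28 cells held none, 13 held 1, 18 held 2, 9 held 3 and 8 held all 4. zgc:194189 was detected in 18 of the 28 cells with none, 10 of 13 with 1, 8 of 18 with 2, 6 of 9 with 3 and 3 of 8 with all 4, with no steady order. These are counts within 1 plate and carry no test, and with means under 1 transcript a cell without a gene may hold undetected RNA.

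Over 422 genes, the Spearman correlation across the 76 cells with the summed sycp3 and dmc1 transcripts had a median of -0.03, a 5th percentile of -0.37 and a 95th percentile of 0.34. The highest were hmgb1a (0.66), e2f5, an E2F family factor (0.66), ATP5B (0.61), cdk2 (0.61), zglp1 (0.60) and atp5ib (0.52). After thinning to equal depth these 6 were at 0.59, 0.48, 0.53, 0.61, 0.55 and 0.54. Among the lowest were the elongation factor eef2b (-0.52), actb2 (-0.49), eef1a1l1 (-0.48) and rps13 (-0.48), and pcna stood at -0.40. The cells share 1 library, and these values are descriptions without a p.

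Grouped by that sum, 38 cells held 0, 22 held 1 or 2 and 16 held 3 or more. These are ranges of a count and not cell types: 18 of the 22 stood at exactly 1 and 4 of the 16 at exactly 3. The means in this order were 0.184, 1.09 and 2.19 transcripts for zglp1, 0.158, 0.955 and 1.94 for cdk2, 0.132, 0.773 and 1.88 for e2f5, and 0.579, 1.32 and 2.94 for hmgb1a. These genes were named above for their high correlations with the same sum in the same cells. The order of a gene over the ranges restates its correlation and is no second result. hmgb1a was detected in all 16 cells of the highest range and in 10 of the 38 cells without sycp3 or dmc1. cdkn2d averaged 0.342, 0.818 and 1.63, spdya 0.237, 0.409 and 0.938, and CT583728.14 1.53, 3.36 and 10.2. The order ran the other way for zgc:194189 at 2.5, 1.86 and 0.750, for pcna at 1.66, 0.909 and 0.563, and for npm1a at 1.61, 1.09 and 0.375. Replication genes did not go one way, since mcm2 averaged 0.684, 1.18 and 1.5 and dut 0.842, 1.23 and 1.69. The germ cell genes had no common order across the ranges. vasa averaged 2.61, 2.05 and 2.00, piwil1 2.26, 2.41 and 1.44, piwil2 0.711, 0.591 and 0.375, and dazl 0.553, 0.727 and 0.438. pld6 averaged 0.447, 0.909 and 0.813, buc 0.0789, 0.455 and 0.313, h1m 0.763, 0.5 and 0.563, and GTSF1L 0.263, 0.409 and 0. Ribosomal protein transcripts were fewer in the higher ranges, at 36.7%, 30.2% and 27.7% of the total, while mitochondrially encoded ones were at 9.31%, 12.5% and 11.5% and median depth at 483, 477.5 and 463.5. The part of the ribosomal share in the other differences was not tested.

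**Figure D5:**
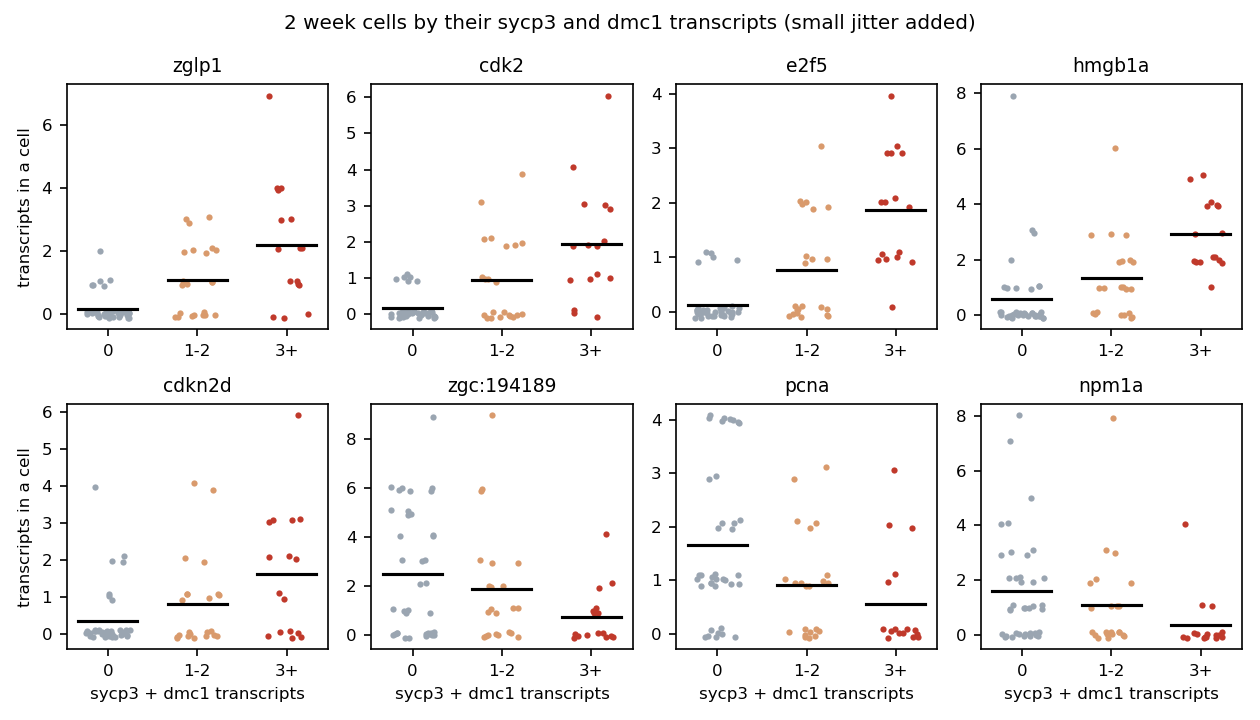
Transcripts per cell of 8 genes in the 76 cells of the 2 week plate, grouped by their summed sycp3 and dmc1 transcripts into 0 (38 cells), 1 to 2 (22 cells) and 3 or more (16 cells), with the mean of each range as a black line and a small jitter added to each point. Zglp1, cdk2, e2f5, hmgb1a and cdkn2d have higher means to the right, zgc:194189, pcna and npm1a to the left. These directions restate the correlations with the same sum in the same cells and are no second result.

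zgc:194189 and pcna went together over the 2 week cells (Spearman 0.50), with 37 cells holding both, and zgc:194189 was at -0.20 with sycp3 and -0.30 with dmc1. zglp1 went with sycp3 (0.59) and cdkn2d (0.47) and was at -0.27 with zgc:194189. piwil1 was near 0 with sycp3 (-0.05) and dmc1 (-0.09), and vasa at -0.20 and -0.01.

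A few 2 week cells stood apart from the rest. 1 cell held 19 of the epidermis list's transcripts, 6 of krt4 and 7 of epcam among them, and 11 of actb1 (a beta actin), with 1 vasa transcript, none of piwil1 and 19.1% mitochondrially encoded transcripts. Another had 204 mitochondrially encoded transcripts of 460 (44.3%), 41 of mt-co1 among them, with 1 vasa and 2 piwil1 transcripts. No 2 week cell other than 2 for epidermis held 5 or more transcripts of any other cell type's list, while at 24 hpf 16 cells did for neural, 12 for epidermis and 10 for muscle genes. An alternative added after seeing the data left out the cell highest in epidermis transcripts and the cell highest in mitochondrially encoded transcripts. The counts of higher and lower genes were then 10 and 8 in place of 10 and 7, and 13 in place of 18 genes had a Fano factor of 2 or more.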

How the data were processed

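Wild-type germ cells of 1 plate at 2 weeks and 5 plates at 24 hpf were used. Per the labels' protocols, RNA was prepared with CEL-seq and sequenced in pairs on a NextSeq; the submitters' processing notes name BWA and Zv9, without versions. The authors deposited 1 table of 1017 genes, whose unit was named signal: each value is a whole number plus 0.1 (tolerance 1e-06), and the number above 0.1 is called transcripts here. How reads were counted, filtered and scaled, and whether molecular identifiers or a doublet step were used, no label states; depth is that of the listed genes only: 36305 transcripts at 2 weeks and 51870 in the chosen 24 hpf cells. Gene names with the prefix germ are written without it. Each of 623 wild-type cell columns was matched to its plate by name; 580 columns of other libraries were not used, and a plate that mixes 8 and 24 hpf cells entered 1 alternative. Means were taken per plate with at least 5 chosen cells, and compared as log2(mean + 0.2). Genes with near-identical copies, such as actins, tubulins and ribosomal proteins, may share reads. Named genes were the members of the germ plasm, piRNA and meiosis lists, the 15 most different genes called in each direction with a mean of at least 1, the 3 most abundant members of each other list, the 10 most abundant and 10 most uneven genes with a mean of at least 1 at 2 weeks; every other gene named (cdkn2d, tuba7l, hspb1, e2f5, id1, msna and the further examples of each gene group among them) was chosen after its values were seen. Members and lists were chosen with earlier results of these data known. Lists were matched on printed names, so members printed under another name were left out of them. Among these were zgc:194189 (foxl2l), zgc:161979 (afp4), zgc:109868 (krt92) and zgc:92061 (krt97). Of the gene names 912 matched the RefSeq table (GRCz12tu), used for names only. Python 3.11.15, numpy 2.4.6, pandas 2.3.3, scipy 1.17.1 and matplotlib 3.10.9 were used, and the comparison was tested on simulated data. Alternatives changed the offset, fold, filter, scaling, choice of cells and plates.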

Additional observations from a re-analysis of the deposited data

Results flagged for a closer look

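In 23 of 148 groups of 5 plate values at 24 hpf the highest plate lay far from the other 4, by Dixon's criterion. Its chance rate of about 1 in 20 groups (5 in 100) holds for normal values of equal precision. Plate means of sparse counts over unlike numbers of cells are not such values, so 23 of 148 cannot be set against that rate. Where 4 plates are at 0 and 1 is above it, a flag is certain, as for buc, piwil1 and spdya among others. Plate 2 was the plate apart in 9 of the 23 groups, plate 3 in 5, plate 1 in 4, plate 5 in 3 and plate 4 in 2. On plate 2 the values were 4.50 transcripts per cell for hmga1a, 1.29 for cox6b2, 1.29 for ccng1, 1.79 for hspb1, 0.857 for h1f0 and 2.57 for hmgn2, and the summed linker and core histone genes stood at 9.07 and the summed p53 and stress genes at 2.21. piwil1 was at 0.0714 there, which is 1 transcript in 14 cells, with 0 on the other plates. Plate 1, with 7 chosen cells, was apart for ATP5B (1.14), hsp90ab1 (7.57), the summed notochord and mesoderm genes (0.429) and the summed liver, gut and pancreas genes (0.571). Plate 3 was apart for spdya (0.0217), tuba7l (0.0435), U3 (0.217), the summed erythroid genes (0.0435) and the endothelial gene etv2 (0.0870), with 0 on the other plates in each. Plate 4 was apart for eef2b (4.11) and pfn1 (1), and plate 5 for buc (0.0333), mcm7 (0.567) and hsp90aa1.2 (0.700). The 2 week values of hmga1a, hspb1 and eef2b lay below all 5 plates, and those of piwil1, ATP5B, cox6b2, spdya, tuba7l, U3, buc, mcm7 and hsp90aa1.2 above all 5, the plate apart included.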

How the results depend on the processing

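No paired analysis was possible because there is 1 plate at 2 weeks, which shares no replicate with the 24 hpf plates beyond a number. The number of genes called depended on the added offset and the fold: 10 higher and 7 lower genes became 3 and 4 with an offset of 0.5, 30 and 16 with 0.1, and 72 and 50 at a fold of 2, since a larger offset shrinks the fold of low genes by construction. Scaling to the total without ribosomal and mitochondrial genes gave 16 higher genes; the cause was not tested, and that scaling shifted the median of all genes to 0.18. Leaving out each 24 hpf plate gave 10 to 12 higher and 5 to 8 lower genes, and a germline share of transcripts 0.833 to 0.963 percentage points above 24 hpf (0.896 with all plates). That difference was 0.597 with 24 hpf cells of 2 or more nanos3 transcripts. This choice kept 78 cells on 4 plates, since plate 1 had fewer than 5 such cells. Plate 1 had the lowest share in the main comparison (0.457%), and the cause of the change was not tested. The difference was 0.589 with 24 hpf cells chosen by vasa. Since vasa is itself counted in the share, that choice raises the 24 hpf share by construction and is no independent check. With all wild-type 24 hpf cells the difference was 1.2, as these include the nanos3-negative cells, whose share was 0.107%. The share of 2 week cells with vasa was 86.8% after thinning, 64.5% at 2 or more transcripts and 100% among cells chosen by vasa, and that with piwil1 59.21% at 2 or more transcripts, lower by construction. Of 357 values of the 17 called genes under the alternatives, 0 changed sign. The called genes lay outside all 5 plates, so leaving out plates or changing the offset could not change a sign, and the count is no check in those settings. Of 396 list medians 23 changed sign, 20 of them in small ribosomal protein and proteasome genes, both near 0 in the main comparison. Small ribosomal protein genes reached 0.265 against 24 hpf cells with 2 or more nanos3 transcripts (4 plates, without plate 1). Proteasome and ubiquitin genes reached 0.149 against all wild-type 24 hpf cells. The rest were 1 each in large ribosomal protein (-0.01 with all wild-type 24 hpf cells), chromatin (0.18) and cytoskeleton genes (0.04). Choosing 2 week cells by nanos3 gave no value, since 1 cell remained. Precision is limited by 7 to 46 chosen cells per 24 hpf plate and by means often under 1 transcript, so that low genes seldom reach a 4-fold call.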

Other observations

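Some further transcripts also differed between the ages. ctsd and fabp3 were among the 3 most abundant members of the macrophage and lipid carrier lists. The others, ppib of the heat shock and chaperone list among them, were chosen after their values were seen. rbm8a, of the exon junction complex, averaged 0.220 ± 0.157 (SD, n = 5 plates) at 24 hpf and 1.45 (1.19 to 1.74) at 2 weeks, and calm3a, a calmodulin, 0.272 ± 0.208 and 1.63 (1.36 to 1.95). gapdhs, a glyceraldehyde-3-phosphate dehydrogenase, averaged 0.174 ± 0.153 and 1.08. For each of the 3 the 2 week value lay above all 5 plates. ppib, a cyclophilin of the endoplasmic reticulum, averaged 1.3 ± 0.326 and 0.184, and ctsd, the lysosomal protease cathepsin D, 0.368 ± 0.177 and no transcript in 76 cells, at least 11.5-fold lower. fabp3, a fatty acid binding protein, averaged 0.983 ± 0.477 and 0.224, below each plate, yet within the 2 week cells it had a positive Spearman correlation with the summed sycp3 and dmc1 transcripts (0.38, n = 76 cells of 1 plate).

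U3, the small nucleolar RNA of ribosomal RNA processing, had 32 transcripts in 14 of the 2 week cells, with up to 9 in 1 cell and a Fano factor of 4.51. nup205, a nuclear pore protein, reached 7 transcripts in 1 cell with a mean of 0.382. DNA methyltransferases were near the floor at both ages: dnmt1 was detected in 5 of 76 and 2 of 106 cells, and dnmt3 in 3 and 4.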
